A study of Mus musculus with 6 samples.

Results

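The proteasome genes of the mouse ventral midbrain were read on 6 Affymetrix arrays, from 3 samples labelled Bach1 knockout and 3 labelled wild type. The genes were chosen by their symbols, which begin with Psm, a letter from a to g and a digit, and each had to have a probe set annotated to it alone. Of 22180 genes with such a probe set, 49 met the rule, and the brightest such probe set on average stood for each gene. Of these, 47 encode subunits, activators, an inhibitor or assembly factors of the proteasome. The remaining 2, Psmc3ip and Psme3ip1, carry a matching symbol but encode a meiotic recombination factor and a protein that binds an activator.

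The tissue was ventral midbrain, the home of the midbrain dopamine neurons, from male mice 2 months of age. The labels name the genotypes Bach1 KO and WT and state neither the structure of the knockout allele, the strain nor whether each replicate was a separate animal. P-values therefore measure the spread between these samples, which may be technical. The question was which transcripts differed when Bach1, a heme-binding transcriptional repressor, was knocked out.

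The proteasome is the main protease for ubiquitin-tagged proteins in the cytosol and nucleus. Its core is a barrel of alpha and beta rings, the 20S particle, whose beta rings hold the peptidase sites. The 19S particle caps the barrel, binds ubiquitin chains, removes them and unfolds the substrate with a ring of ATPases. Interferon-induced beta subunits can replace the standard catalytic ones and give the immunoproteasome, and PA28 and PA200 caps open the barrel without ATP. Proteasome genes are induced together by the transcription factor NFE2L1 when proteasome activity falls. NFE2L1 and its relative NRF2 act through antioxidant response elements, the same family of DNA elements that BACH1 occupies as a repressor.

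Because BACH1 and the NFE2L factors share that element, its core, TGACNNNGC on either strand, was searched in the RefSeq promoters of the genes (GRCm38.p6, from 250 bases before to 50 bases after the annotated start). Promoters were listed for 41 of the 49 genes, and 6 of these held the core, or 14.6%, against 14% of 27025 genes in the table. The 30 bases around each match are shown 5′ to 3′ on the strand of the gene. Capitals mark the match, which reads on the opposite strand for Psme4, Psmd12 and Psmc6.

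Psmb5 (chr14:54618023-54618052, minus strand): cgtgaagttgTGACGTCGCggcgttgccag
Psmb6 (chr11:70525338-70525367, plus strand): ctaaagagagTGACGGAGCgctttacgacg
Psmd9 (chr5:123228149-123228178, plus strand): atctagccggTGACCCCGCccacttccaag
Psme4 (chr11:30771758-30771787, plus strand): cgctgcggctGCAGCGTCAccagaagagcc
Psmd12 (chr11:107479278-107479307, plus strand): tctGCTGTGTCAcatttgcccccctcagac
Psmc6 (chr14:45329587-45329616, plus strand): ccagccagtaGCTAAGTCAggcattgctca

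The centres of the matches lay 43 bases upstream of the start in Psmb5, 5 in Psmb6, 27 in Psmd9, 3 in Psme4, 243 in Psmd12 and 223 in Psmc6. Psmb5 and Psmb6 encode catalytic beta subunits, Psmd9 an assembly chaperone, Psme4 the PA200 cap, Psmd12 a lid subunit and Psmc6 an ATPase. A match is a description of letters and not a measured binding site.

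The values were log2 expression levels, so a difference of 1 is a doubling. Probe sets differ in how strongly they bind their target, so levels are not ranked between genes. A probe set was called at an adjusted p under 0.05 (limma with Benjamini-Hochberg adjustment over all 41345 probe sets). The Bach1 probe set itself was at 7.59, 7.68 and 7.70 on the knockout-labelled arrays and at 7.46, 7.59 and 7.57 on the wild-type arrays, a log2 difference of 0.11 with a 95% interval of -0.085 to 0.31 (limma, adjusted p = 0.74). It was thus not lower where the labels say knockout, so the directions given here follow the labels, and whether the probe set reads a deleted part is not given in the sources used here. Hmox1, the heme oxygenase gene that BACH1 represses, averaged 8.38 ± 0.15 on the knockout-labelled arrays and 6.43 ± 0.098 on the wild-type arrays (SD, n = 3 each; limma, adjusted p = 0.0181). Array medians lay between 5.58 and 5.69, and arrays correlated with each other at a Pearson r of 0.984 to 0.989 over probe sets, which do not count as replicates. Above 5.07, the level that 40% of probe sets fall under, lay 10 of 10 neuron markers and 10 of 10 dopamine neuron markers. So did 15790 of all 22180 genes, so passing this level does not identify the tissue.

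No proteasome gene differed between the genotypes by the test. Of the 49 genes, 0 were called in either direction, against 0.00726% of all probe sets, and the smallest adjusted p among them was 0.614. At an unadjusted p under 0.05 limma also gave 0 of the 49, against 8.27% of all probe sets. By gene, limma gave 1443 of all 22180 and 802 of the 15790 above the level of 5.07. The knockout-labelled mean was above the wild-type mean for 28 genes and below it for 21. Over all 22180 genes it was above for 10407 and below for 11773. Of the 15790 genes above the level of 5.07, it was above for 6426 and below for 9364. The median log2 fold change of the 49 genes was 0.0046, beside -0.0098 over all 22180 genes and -0.024 over the 15790. The values of the groups did not overlap for 4 of the 49 genes, against 14.3% of all probe sets. Psma6 was the 1 gene that lay higher throughout the knockout-labelled arrays, where 7.4% of all probe sets did so. The 3 that lay lower throughout were Psmb10, Psme3 and Psmd5, where 6.86% of all probe sets did so. Among the 15790 genes above the level of 5.07, 787 lay higher throughout and 1507 lower.

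The precision of the arrays bounds how large a change could have been missed in each gene. Of the 47 proteasome genes, 44 lay above the level of 5.07. For 44 of these 44 the 95% interval of the fold change lay within 1.5-fold in either direction, and for 38 within 1.3-fold. These intervals cover each gene alone and not the whole set at once. The 49 genes had a median SD within groups of 0.082 on the log2 scale, beside 0.13 over all genes and 0.11 over all genes above that level. Their median absolute log2 fold change was 0.063, beside 0.093 over all genes and 0.079 over those above that level. In bins by level, the brightest, bins 9 and 10, held 18 of the 49 genes each. Neither comparison was matched for level. The 3 dim genes were Psma5, Psma8 and Psmb11, and their intervals were wide.

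**Figure D1:**
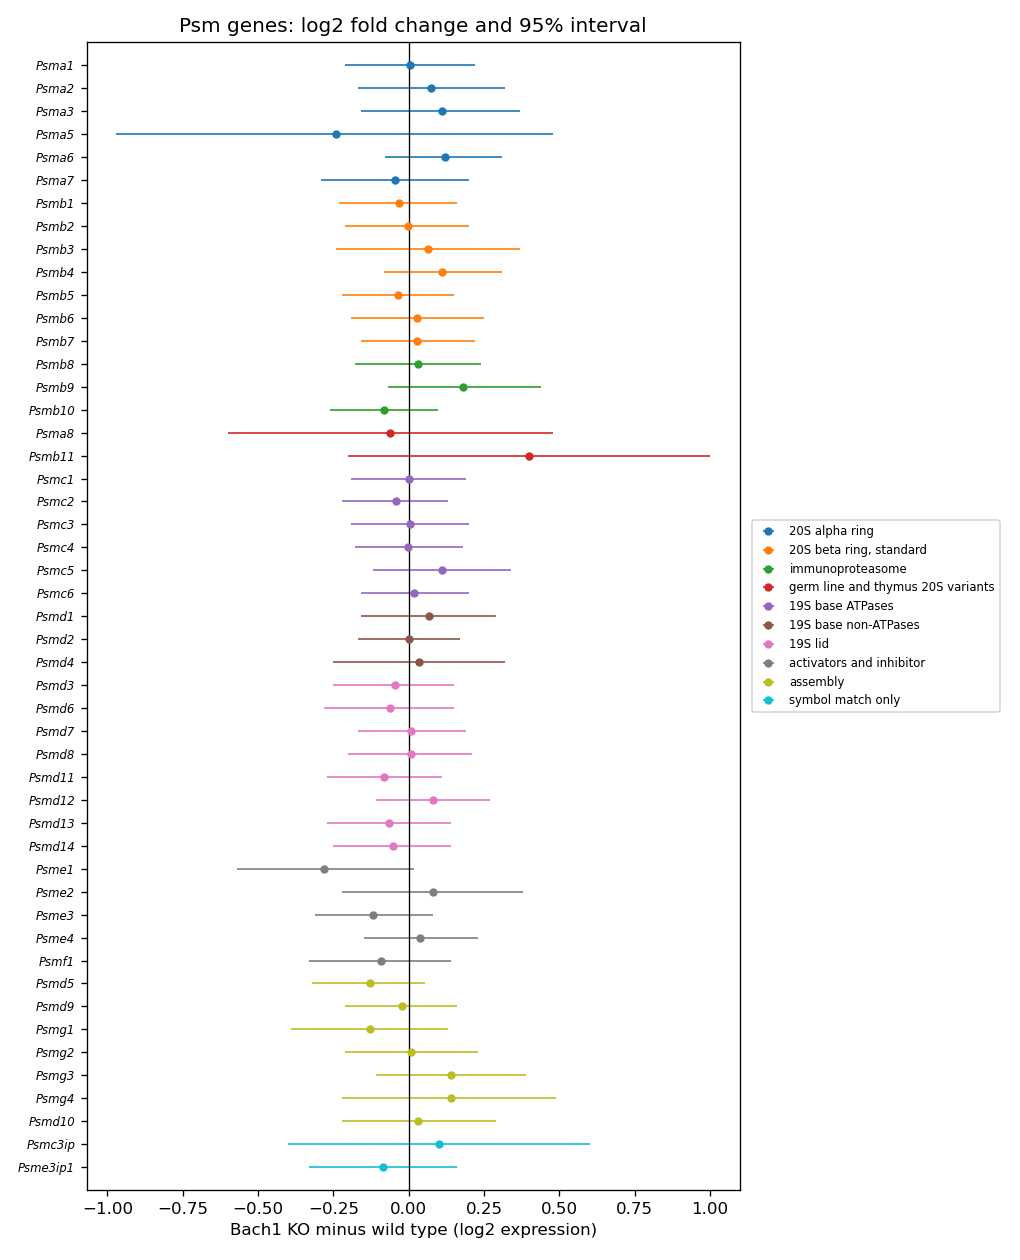
Log2 fold change, knockout-labelled minus wild type, of each of the 49 genes (points) with its 95% interval from limma (bars), coloured by role. The points lie between -0.28 (Psme1) and 0.40 (Psmb11), and every bar crosses 0; the widest belong to the dim genes Psma5, Psma8 and Psmb11.

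The alpha ring forms the gate through which substrates enter the barrel. Of 6 measured alpha genes 4 leaned higher and 2 lower with the knockout label, and 0 were called. Psma6 was at 9.27, 9.31 and 9.33 on the knockout-labelled arrays, against 9.09, 9.21 and 9.25 on the wild-type arrays, a log2 fold change of 0.12 (95% interval -0.079 to 0.31; limma, adjusted p = 0.728). Its groups were separate, with the closest values at 9.27 and 9.25. Psma3 had a log2 fold change of 0.11 and Psma2 of 0.075, while Psma1 and Psma7 were at 0.0046 and -0.045. Psma5 was dim on both of its probe sets, with mean levels of 4.52 and 4.43, and its brighter one was at 3.87, 4.54 and 4.79 on the knockout-labelled arrays and 5.10, 4.54 and 4.30 on the wild-type arrays. These ranges overlap widely, and the log2 fold change of -0.24 had a 95% interval of -0.97 to 0.48 (limma, adjusted p = 0.856). Psma4 had no probe set of its own. The brighter of the 2 probe sets that it shares with AY074887 had a log2 difference of -0.017 (95% interval -0.21 to 0.18).

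The standard beta ring holds the peptidase sites in Psmb5 (chymotrypsin-like), Psmb6 (caspase-like) and Psmb7 (trypsin-like). Of its 7 genes 4 leaned higher and 3 lower with the knockout label, within a log2 range of -0.035 to 0.11. Psmb5 was at 12.41, 12.37 and 12.50 on the knockout-labelled arrays and 12.47, 12.45 and 12.46 on the wild-type arrays, a log2 fold change of -0.035 (95% interval -0.22 to 0.15; limma, adjusted p = 0.927). The wild-type values sat inside the knockout-labelled range. Psmb6 was at 8.29, 8.31 and 8.51, against 8.33, 8.33 and 8.37 on the wild-type arrays, a log2 fold change of 0.028 (95% interval -0.19 to 0.25). Psmb7 was at 9.75, 9.72 and 9.87, against 9.75, 9.76 and 9.75 on the wild-type arrays, a log2 fold change of 0.027 (95% interval -0.16 to 0.22). For Psmb5, Psmb6 and Psmb7 alike, knockout-labelled replicate 3 was the highest of the 6 arrays, and for Psmb5 and Psmb6 the other knockout-labelled values lay below the wild-type ones. Among the structural beta subunits, Psmb4 had the highest log2 fold change, with 9.60, 9.55 and 9.65 on the knockout-labelled arrays and 9.42, 9.48 and 9.56 on the wild-type arrays (0.11, 95% interval -0.082 to 0.31; limma, adjusted p = 0.734). Its ranges overlapped at their ends. Psmb1, Psmb2 and Psmb3 had log2 fold changes of -0.034, -0.0029 and 0.064.

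The inducible subunits of the immunoproteasome, which cut proteins into peptides for presentation on MHC class I, had differences of both signs, and 0 of 3 were called. Psmb8, the counterpart of Psmb5, was at 5.85, 6.02 and 6.03 on the knockout-labelled arrays and 5.90, 6.0 and 5.90 on the wild-type arrays, a log2 fold change of 0.030 (95% interval -0.18 to 0.24; limma, adjusted p = 0.946). Psmb9, the counterpart of Psmb6, was at 5.34, 5.27 and 5.36, against 4.96, 5.27 and 5.18 on the wild-type arrays, a log2 fold change of 0.18 (95% interval -0.069 to 0.44; limma, adjusted p = 0.68). The second replicate of each group met at 5.27, so the groups just touched. Psmb10, the counterpart of Psmb7, was at 9.32, 9.26 and 9.34, against 9.37, 9.40 and 9.39 on the wild-type arrays, a log2 fold change of -0.082 (95% interval -0.26 to 0.096; limma, adjusted p = 0.79). Each knockout-labelled value of Psmb10 lay below each wild-type value, with an estimated difference of 0.945-fold.

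**Figure D2:**
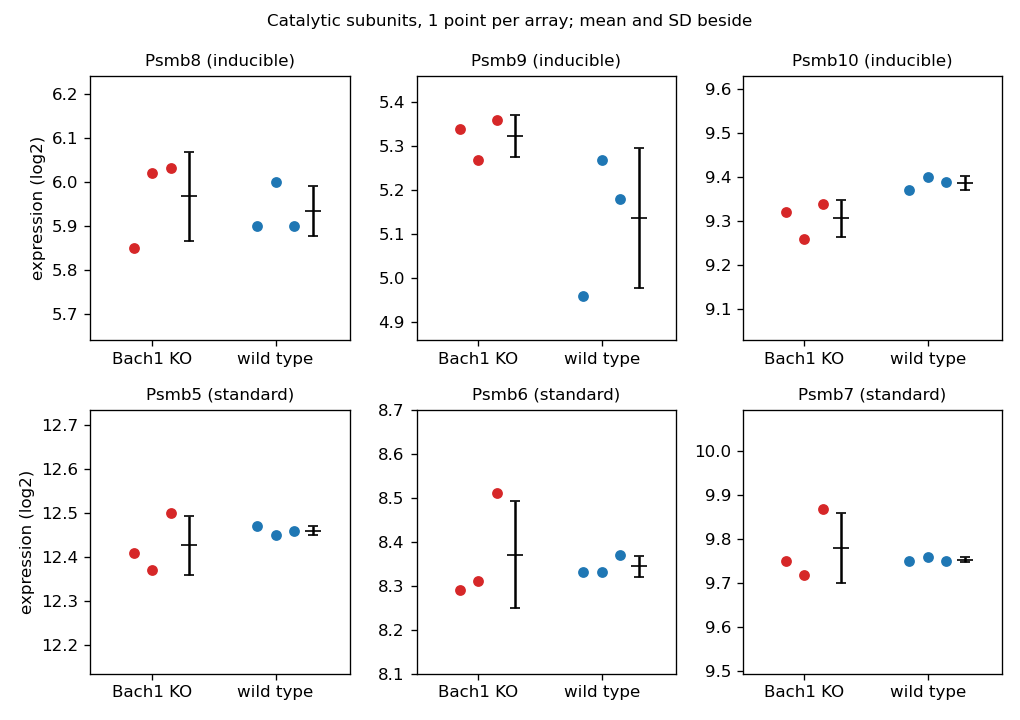
Log2 expression of the inducible catalytic subunits (top) and their standard counterparts (bottom), 1 point per array, with the mean and SD of each group (n = 3) beside the points; each panel spans the same range of log2 units around its own values. Psmb10 separates the groups, with 9.26 to 9.34 in the knockout-labelled group and 9.37 to 9.40 in the wild-type group, and the other genes overlap.

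A change in the balance of inducible and standard subunit transcripts would show as a shift of their ratio within each array. The subunits in the assembled particle were not measured. The log2 ratio of Psmb10 to Psmb7 was -0.43, -0.46 and -0.53 on the knockout-labelled arrays and -0.38, -0.36 and -0.36 on the wild-type arrays, where the size of the ratio also carries the difference between the probe sets and only its shift can be read. The shift was -0.11, with no overlap. Its exact permutation p was 0.1 (two-sided), the smallest that 3 against 3 arrays allow, and 0.3 after adjustment over the 3 pairs. The ratio of Psmb9 to Psmb6 shifted by 0.16 (exact permutation p = 0.2, adjusted 0.3), and by 0.077 without wild-type replicate 1. That of Psmb8 to Psmb5 shifted by 0.065 (exact permutation p = 0.6, adjusted 0.6). The shifts of the 3 pairs differed in sign, and this exact test could not have passed for any of them.

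The variants of other tissues stayed at the level of dim probe sets. Psma8, an alpha subunit of the germ line, was at 4.55, 4.58 and 4.34 on the knockout-labelled arrays and 5.01, 4.13 and 4.52 on the wild-type arrays (log2 fold change -0.062, 95% interval -0.60 to 0.48; limma, adjusted p = 0.958). Psmb11, the beta subunit of thymic epithelium, had the highest log2 fold change of the 49 genes, 0.40 (95% interval -0.20 to 1.0; limma, adjusted p = 0.705). That value came from 1 array, since Psmb11 was at 4.60, 5.47 and 4.66 on the knockout-labelled arrays and 4.62, 4.34 and 4.59 on the wild-type arrays. Without knockout-labelled replicate 2 it was 0.12.

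In the 19S particle 0 genes were called. Its 17 genes comprised 10 with a higher and 7 with a lower knockout-labelled mean, and without knockout-labelled replicate 3 there were 4 higher and 13 lower. Their log2 fold changes had a median of 0.00014 and ran from -0.082 to 0.11. Among the 6 ATPases that unfold substrates, Psmc5 was highest, with 8.77, 8.64 and 8.90 on the knockout-labelled arrays and 8.70, 8.60 and 8.67 on the wild-type arrays (log2 fold change 0.11, 95% interval -0.12 to 0.34; limma, adjusted p = 0.78). Psmc2 was lowest, with 8.21, 8.27 and 8.28, against 8.31, 8.27 and 8.29 on the wild-type arrays (log2 fold change -0.042, 95% interval -0.22 to 0.13). Both pairs of ranges overlap. Psmc1, Psmc3, Psmc4 and Psmc6 had log2 fold changes of 0.00012, 0.0032, -0.0017 and 0.019.

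The non-ATPase subunits of the base bind ubiquitin and shuttle proteins. Psmd2, the scaffold that docks them, was at 10.10, 10.10 and 10.10 on the knockout-labelled arrays and 10.08, 10.13 and 10.09 on the wild-type arrays, and its log2 fold change of 0.00014 had a 95% interval of -0.17 to 0.17. Psmd1, the other large scaffold, was at 10.07, 10.06 and 10.25, against 9.97, 10.06 and 10.14 on the wild-type arrays (log2 fold change 0.067, 95% interval -0.16 to 0.29). The ubiquitin receptor gene Psmd4 had a log2 fold change of 0.035 and its highest value, 8.91, on knockout-labelled replicate 3.

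The lid removes ubiquitin through the protease Psmd14 and is built around it. Of its 8 genes 3 leaned higher and 5 lower, and the median log2 fold change was -0.050. Psmd11 was lowest, with 9.12, 9.10 and 9.23 on the knockout-labelled arrays and 9.24, 9.24 and 9.22 on the wild-type arrays (log2 fold change -0.082, 95% interval -0.27 to 0.11; limma, adjusted p = 0.801). Psmd12 was highest, with 9.97, 10.06 and 10.05, against 9.88, 9.97 and 9.98 on the wild-type arrays (log2 fold change 0.082, 95% interval -0.11 to 0.27). In each, 1 knockout-labelled value fell within the wild-type range. Psmd14 itself was at -0.053 (95% interval -0.25 to 0.14), and Psmd3, Psmd6, Psmd7, Psmd8 and Psmd13 ran from -0.066 to 0.007.

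Among the caps and the inhibitor, the PA28 subunit gene Psme1 had the lowest log2 fold change of the 49 genes. It was at 8.19, 8.05 and 8.34 on the knockout-labelled arrays and 8.30, 8.51 and 8.60 on the wild-type arrays, a log2 fold change of -0.28, or 0.826-fold (95% interval -0.57 to 0.018; unadjusted p = 0.0618, limma, adjusted p = 0.614). The groups overlapped in 1 place, where knockout-labelled replicate 3 lay above wild-type replicate 1. With 1 array left out in turn the value stayed between -0.36 and -0.20. Psme2, whose product forms 1 ring with that of Psme1, was at 8.04, 8.18 and 7.84, against 7.82, 8.11 and 7.90 on the wild-type arrays, a log2 difference of 0.079 (95% interval -0.22 to 0.38). The 2 genes thus had opposite signs, and the difference between them was not tested. Without knockout-labelled replicate 2 the log2 difference of Psme2 was 0.00075. A probe set that Psme2 shares with 9930111J21Rik1 and 9930111J21Rik2 had a log2 difference of 0.012 (95% interval -0.31 to 0.34). Psme2 has a near-identical copy, Psme2b, which had no probe set of its own, so signal from the copy cannot be told apart.

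The nuclear cap gene Psme3 (PA28 gamma) was at 9.03, 9.08 and 9.03 on the knockout-labelled arrays and 9.26, 9.12 and 9.10 on the wild-type arrays, a log2 fold change of -0.12 (95% interval -0.31 to 0.082; limma, adjusted p = 0.733). The groups did not overlap, with the closest values at 9.08 and 9.10. Psme4 had a log2 fold change of 0.038, and Psmf1, which encodes the inhibitor PI31, one of -0.092 (95% interval -0.33 to 0.14). Interferon induces Psme1 and Psme2 as it does the inducible beta subunits, and the interferon-stimulated response element in the form of GAAA, any 2 bases and GAAA again, searched on both strands, stood in 5 of the 41 promoters (12.2%), against 3.99% of the 27025 genes. It was in those of Psmd4, Psmb3, Psme1, Psmd9 and Psmg4, whose log2 fold changes ran from -0.28 to 0.14, with 3 higher and 2 lower. A link between the match and these values was not tested. No match fell in the windows of Psmb8, Psmb9 or Psmb10. The match of Psme1 is shown because this gene had the lowest log2 fold change, with the match in capitals on the opposite strand, centred 14 bases downstream of the start.

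Psme1 (chr14:55578493-55578522, plus strand): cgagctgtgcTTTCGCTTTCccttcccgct

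Assembly factors split evenly, with 4 of 7 genes higher and 3 lower. Psmd5, a chaperone that holds an ATPase module until the base is complete, was at 9.20, 9.28 and 9.20 on the knockout-labelled arrays and 9.32, 9.35 and 9.41 on the wild-type arrays, a log2 fold change of -0.13 (95% interval -0.32 to 0.054; limma, adjusted p = 0.687). Its groups did not overlap. The other chaperones of the base, Psmd9 and Psmd10, were at -0.023 and 0.032. Psmg1 and Psmg2 form a dimer on which the alpha ring is built. Psmg1 was at 7.49, 7.38 and 7.42, against 7.61, 7.70 and 7.38 on the wild-type arrays (log2 fold change -0.13, 95% interval -0.39 to 0.13), and Psmg2 had a log2 fold change of 0.0073. Psmg3 and Psmg4 form the second such dimer. Psmg3 was at 6.61, 6.63 and 6.41, against 6.42, 6.30 and 6.52 on the wild-type arrays (log2 fold change 0.14, 95% interval -0.11 to 0.39), and Psmg4 had a log2 fold change of 0.14 with an interval of -0.22 to 0.49. The ranges of these 4 genes overlap.

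Psmc3ip and Psme3ip1 matched by symbol and were not counted as proteasome genes. Psmc3ip was at 6.57, 5.80 and 6.01 on the knockout-labelled arrays and 5.88, 6.13 and 6.06 on the wild-type arrays (log2 fold change 0.10, 95% interval -0.40 to 0.60), with 1 high array. Psme3ip1 was at 10.74, 10.65 and 10.51, against 10.83, 10.69 and 10.65 on the wild-type arrays (log2 fold change -0.084, 95% interval -0.33 to 0.16).

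The 6 genes with the antioxidant element core described above were not tested against the other genes, 8 of which had no promoter listed. Psmb5, Psmb6, Psmd9, Psme4, Psmd12 and Psmc6 had log2 fold changes between -0.035 and 0.082, with 4 higher and 2 lower. As 0 of all 49 genes were called, the lack of a call does not set these 6 apart.

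The clearest pattern among the members lay between arrays of the same group and not between genotypes. Among the 12 standard 20S genes above the level of 5.07, 10 had their highest value on knockout-labelled replicate 3 (83.3%), where 18.0% of all genes above that level had theirs. Of all 49 genes, 21 (42.9%) had theirs on that array, beside 17.4% of all genes. In the 19S particle 7 of 17 did, while 6 were highest on wild-type replicate 1. On knockout-labelled replicate 3, 35 of the 49 genes lay above their own mean over the 6 arrays, as did 8050 of all 15790 genes above that level. Among them were 7 of 7 standard beta genes, 6 of 6 ATPase genes, 6 of 8 lid genes, 4 of 7 assembly factors and 3 of 5 genes for caps and the inhibitor. The median deviation of the 13 standard 20S genes was 0.11 there, beside -0.031 and -0.045 on knockout-labelled replicates 1 and 2 and -0.023, -0.034 and 0.015 on the wild-type arrays. Over the 17 genes of the 19S particle it was 0.052 on knockout-labelled replicate 3, and over all genes 0.0023. The lid was lowest on knockout-labelled replicate 1, where 0 of 8 genes lay above their mean, beside 7347 of the 15790. These shares describe single arrays and carry no test.

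**Figure D3:**
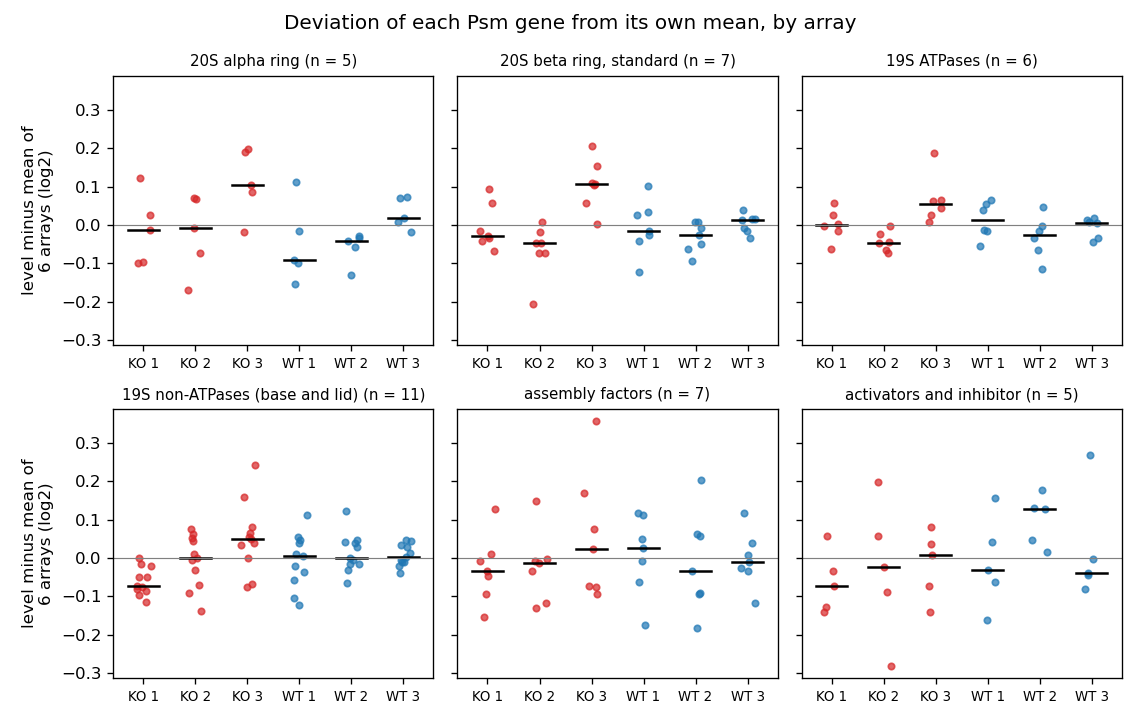
Deviation of each gene above the level of 5.07 from its own mean over the 6 arrays (points, log2) and the median of each role (lines), by array. Knockout-labelled replicate 3 lies highest in the 20S and ATPase panels, with 7 of 7 standard beta genes above 0.

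The direction counts rested on that array. Without knockout-labelled replicate 3, 14 of the 49 genes leaned higher and 35 lower with the knockout label, and among the standard 20S genes 3 of 13 were higher, where all arrays gave 8 of 13. The median log2 fold change of the 49 genes was then -0.021. Knockout-labelled replicate 3 also had the highest mean level of 10 dopamine neuron markers, 9.30, beside 9.15 and 8.95 on the other knockout-labelled arrays and 8.87 to 9.05 in the wild-type group. The part of that difference in the proteasome values was not tested, and in tissue RNA a change in the number of cells of a type cannot be told apart from a change in RNA per cell.

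Other genes of the pathway were also without a call. Over 34 measured genes in 5 lists, 15 leaned higher and 19 lower with the knockout label, the median log2 fold change was -0.0064, 0 were called by limma and 3 had an unadjusted p under 0.05, where 8.27% of all probe sets did. The groups did not overlap for 4 of the 34, where 14.3% of all probe sets did not. Subunits and bound factors with other names had 6 of 10 higher, with the ubiquitin ligase gene Ubr4 at 0.073 (95% interval -0.15 to 0.29) and the deubiquitinase gene Uchl5 at 0.049. Pomp, the maturation factor of the barrel, was at -0.030, and Usp14, the deubiquitinase of the 19S base, at -0.00063. Of 7 measured genes for shuttle factors and the VCP unfoldase, 6 had a lower mean. Ufd1, a cofactor of VCP, was at 9.18, 9.10 and 8.99 on the knockout-labelled arrays and 9.40, 9.38 and 9.25 on the wild-type arrays, a log2 fold change of -0.25 that did not pass (95% interval -0.47 to -0.029; limma, adjusted p = 0.573). Its groups were separate. Uba6, a ubiquitin-activating enzyme, had a log2 fold change of 0.043.

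Of the regulators of proteasome gene expression 0 of 8 were called. Nfe2l1 differed by a log2 value of -0.028 (95% interval -0.23 to 0.17), Nfe2l2, which encodes NRF2, one of -0.067 (95% interval -0.34 to 0.21), and Ngly1, whose product processes NFE2L1, one of -0.030. The small Maf gene Maff, a partner of BACH1 and of the NFE2L factors, had 0.18 (95% interval -0.18 to 0.54; limma, adjusted p = 0.768), and with it 4 of the 8 measured regulators, Bach1 among them, were higher.

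Genes of MHC class I processing, which use the peptides of the immunoproteasome, had 3 of 8 higher and 5 lower. Nlrc5, a transactivator of this pathway, was at 5.24, 5.27 and 5.15 on the knockout-labelled arrays and 4.99, 5.0 and 5.01 on the wild-type arrays (log2 fold change 0.22, 95% interval 0.033 to 0.40; limma, adjusted p = 0.566). Erap1, the peptidase that trims peptides in the endoplasmic reticulum, was at 6.37, 6.25 and 6.45, against 6.52, 6.70 and 6.58 on the wild-type arrays (log2 fold change -0.24, 95% interval -0.47 to -0.0084; limma, adjusted p = 0.594). Both separated the groups, in opposite directions, and neither passed. The wild-type values of Nlrc5 all lay below the level of dim probe sets, 5.07. The peptide transporter genes Tap1 and Tap2, neighbours of Psmb8 and Psmb9 in the MHC, were at 0.062 and -0.098.

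Cells rich in immunoproteasome were followed by their markers. Of 11 microglia markers 8 were higher and 3 lower, and their mean level was 7.97 to 8.12 in the knockout-labelled group and 8.04 to 8.06 in the wild-type group. Siglech of this list was at 7.24, 7.04 and 7.23, against 7.56, 7.47 and 7.50 on the wild-type arrays (log2 fold change -0.34, limma, adjusted p = 0.516). Of 12 endothelial and mural markers 12 were lower, where 9364 of the 15790 genes above 5.07 were. The mean level of these markers was 7.89 to 8.06, against 8.10 to 8.20 on the wild-type arrays. Pdgfrb, a pericyte receptor gene, was at -0.30 (limma, adjusted p = 0.597). Lymphocyte markers had mean levels of 4.95 to 4.97 on the knockout-labelled arrays and 4.91 to 5.02 on the wild-type arrays. Of these markers, Cd3g, Cd2, Ms4a1 and Cd8a lay below 5.07. Of the 9 lymphocyte markers 4 were higher and 5 lower. Cd4 had a log2 fold change of 0.31 (limma, adjusted p = 0.583) and Ptprc one of -0.28 (limma, adjusted p = 0.68). The part of these cell types in the values of Psmb8, Psmb9, Psmb10 and Psme1 was not tested. Astrocyte, oligodendrocyte and neuron markers had 6 of 10, 3 of 9 and 6 of 10 higher, and 0 were called. S100b and Sox9 of astrocytes were at 0.10 and -0.12, Opalin and Cnp of oligodendrocytes at -0.24 and -0.11, and the neurofilament genes Nefm and Nefl at 0.18 and 0.11. Dopamine neuron markers had 8 of 10 higher, with Aldh1a1 at 0.26 (limma, adjusted p = 0.564).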

How the data were processed

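Total RNA was extracted with Trizol and biotin-labelled for the arrays, per the labels' protocols. Log2 values per probe set were deposited, 1 column per array, made with RMA per the submitters' processing notes. RMA makes the arrays' distributions alike, which takes out a shift shared by most genes, and shrinks the differences of dim probe sets. Its version and the genome build are not given in the sources used here. There were 0 further sample columns.

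Gene names came from the platform's annotation, and 23521 probe sets had 1 gene. Every one of the 41345 probe sets was tested with limma 3.58.1 in R 4.3.3 (lmFit and eBayes, no covariates, 3 against 3 arrays), and the member rows were read from that fit. The test was tested on simulated data. Ratios of subunits used exact permutation tests in scipy 1.17.1. Genes given with every array were the 6 catalytic subunits, the highest and lowest of each role and, chosen after their values were seen, Psme3 and Psmd5, whose groups separated. From each pathway or marker list, genes at an unadjusted p under 0.05 are named, or else the 2 with the smallest p. Pomp, Usp14, Nfe2l1, Nfe2l2, Ngly1, Tap1 and Tap2 were added for their role. The genes and lists were chosen with earlier results of these data known. Alternatives changed the variance prior, the normalization, the filter on dim probe sets, the replicate block, the probe set per gene and the arrays used. Psmb6-ps, Psmb5-ps and other pseudogenes were not analysed here. The number of arrays limits the precision.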

Additional observations from a re-analysis of the deposited data

How the results depend on the processing

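In each setting 0 proteasome genes were called (limma). With the replicate block and with any 1 array left out, 0 of all probe sets were called, so those settings say nothing about the stability of that count. Of the 49 genes, 24 kept their sign throughout. With the replicate number as a block the median log2 fold change stayed at 0.0046 and 28 of 49 genes were higher, while 0 of all probe sets were called with the block, against 3 without it. Deviations of same-numbered arrays correlated at 0.0864, -0.0326 and 0.0395, the first being the highest of all pairs. Knockout-labelled replicates 2 and 3 correlated best with wild-type replicates 3 and 2 (0.0342 and 0.0462). The numbers thus gave no clear sign of pairing, and with so few arrays such values cannot exclude it. Equalising the array medians lowers every log2 fold change by the same amount, so it says nothing about single genes and turns the sign of those close to 0. The median of all probe sets was then -0.047, beside 0.0005 as deposited, the median of the 49 genes was -0.042, and 14 had a higher mean and 35 a lower one. Under it Psma1 was at -0.042, Psmb6 at -0.019, Psmb7 at -0.020, Psmb8 at -0.017, Psmc1 at -0.047, Psmc3 at -0.044 and Psmc6 at -0.028. Likewise Psmd10 was at -0.015, Psmd2 at -0.047, Psmd4 at -0.012, Psmd7 at -0.040, Psmd8 at -0.041, Psme4 at -0.0087 and Psmg2 at -0.040. After renewed quantile normalization Psmb2 was at 0.031, Psmc4 at 0.011 and Psmd9 at 0.019, and with probe sets averaged Psmg2 was at -0.0021. The cause of the changes in these last 2 settings was not tested. With 1 array left out in turn, the number of genes with a higher mean ran from 14 to 29, the lowest without knockout-labelled replicate 3, and the median from -0.021 to 0.021. Genes that changed sign had these ranges of log2 fold change: -0.047 to 0.053 for Psma1, -0.0049 to 0.13 for Psma2, -0.44 to 0.022 for Psma5, -0.12 to 0.026 for Psma7, -0.27 to 0.17 for Psma8, -0.067 to 0.0083 for Psmb1, -0.057 to 0.031 for Psmb2. The next were -0.021 to 0.18 for Psmb3, -0.042 to 0.067 for Psmb6, -0.017 to 0.056 for Psmb7, -0.0025 to 0.089 for Psmb8, -0.032 to 0.034 for Psmc1, -0.028 to 0.036 for Psmc3, -0.12 to 0.26 for Psmc3ip. Further ranges were -0.027 to 0.02 for Psmc4, -0.0097 to 0.045 for Psmc6, -0.044 to 0.11 for Psmd10, -0.011 to 0.016 for Psmd2, -0.077 to 0.11 for Psmd4, -0.017 to 0.035 for Psmd7, -0.025 to 0.052 for Psmd8. The last were -0.043 to 0.0051 for Psmd9, -0.04 to 0.067 for Psmg2, -0.0097 to 0.24 for Psmg4. Without dim probe sets, Psma5, Psma8 and Psmb11 had no value. Signal near the level of dim probe sets limits what can be said of these 3 genes and of Psmb9, whose mean level was 5.23.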
